A study of Mus musculus with 27 samples.

Results

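Expression of 9 genes of the amyloid and tau pathways was followed in the fetal mouse brain. The genes, App, Mapt, Psen2, Psenen, Ncstn, Aph1a, Bace1, Apoe and Clu, were taken by symbol from the 55416 rows of the gene read-count table. All 9 were found, and all 9 passed the filter on low counts in each of the 16 comparisons made. Messenger RNA of the whole brain was sequenced in 27 libraries of fetuses labelled female, 3 for each of 3 strains on d12, d15 and d17 of gestation, counted with the day of the vaginal plug as the first. C57BL/6J is the long-lived inbred strain of the study, and AKR/J is a short-lived inbred strain prone to leukemia. Cav1-null mice (B6.Cg-Cav1tm1Mls/J) carry a disrupted caveolin-1 gene on the C57BL/6J background. Dams were of the same strain as their fetuses, so a Cav1-null fetus developed in a Cav1-null dam. The labels number the 3 libraries of a group without stating whether they came from separate litters, so the p-values measure the spread between these libraries. The change from d12 to d15 is called the early phase and the change from d15 to d17 the late phase.

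APP is a membrane protein of neurons and many other cells. It can be cut first by beta-secretase, the enzyme encoded by Bace1, and then by gamma-secretase, which releases the amyloid-beta peptide. Gamma-secretase is a complex of a presenilin, which holds the active site, with nicastrin, APH-1 and PEN-2, encoded here by Psen2, Ncstn, Aph1a and Psenen. It also cuts Notch and other membrane proteins of the developing brain. Tau, encoded by Mapt, binds microtubules in the axons of neurons. Apolipoprotein E and clusterin, encoded by Apoe and Clu, are secreted lipid-carrying proteins that can bind amyloid-beta.

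App and Mapt are known to change their exon content as neurons mature, and the junction results turn on a few such exons. Exon 7 of App encodes a Kunitz-type protease inhibitor domain, which neurons mostly leave out. Exon 14 of App is skipped in a form made by many non-neuronal cells. Exon 8 of the Mapt transcript encodes an added microtubule-binding repeat, mostly left out in the fetal brain. The App exons are printed, since the App junction results turn on them, in the direction of transcription from GRCm39, with the exon in capitals and 10 intron bases on each side in lower case.
App exon 7, coding, 168 bases, chr16:84840464-84840631, minus strand: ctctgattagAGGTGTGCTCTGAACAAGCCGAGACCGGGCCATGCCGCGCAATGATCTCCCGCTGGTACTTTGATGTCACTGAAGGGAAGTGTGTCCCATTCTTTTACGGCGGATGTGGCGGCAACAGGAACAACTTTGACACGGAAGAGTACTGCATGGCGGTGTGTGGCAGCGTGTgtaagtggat
App exon 14, coding, 54 bases, chr16:84768296-84768349, minus strand: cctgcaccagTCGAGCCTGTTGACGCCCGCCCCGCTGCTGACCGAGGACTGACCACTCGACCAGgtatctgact
Both exons follow the intron bases ag and precede gt, the usual splice signals. Both lengths are multiples of 3 bases, so leaving either exon out keeps the reading frame.

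The gene counts of a library summed to between 26363697 and 39759702 reads. Levels are in CPM (reads per 1000000 reads of the library after TMM scaling over all 27 libraries), and differences are log2 fold changes (log2FC) ± SE from edgeR's quasi-likelihood test, with p adjusted over all genes tested and DE meaning an adjusted p under 0.05. Cav1 was at 0 to 0.509 CPM in Cav1-null libraries, while AKR/J libraries held 9.25 to 34.2 CPM and those of C57BL/6J 10.3 to 39.9 CPM. All 9 neuron markers were above 1 CPM in every group. The AKR/J d12 libraries stood apart, with erythroid markers summing to 102000, 33000 and 198000 CPM against 568 to 18600 CPM in all other libraries. Their trophoblast and decidua markers summed to 36.1 to 781 CPM, against 0 to 65 CPM in the others, and their neuron markers to 1280 to 1860 CPM, below the 2710 to 6330 CPM of the others. In bulk tissue, fewer cells of a type and less RNA per cell cannot be told apart.

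Per kilobase of the canonical transcript, Mapt was the most abundant of the 9 genes, with a mean of 123 CPM per kb over the 27 libraries (9.21 to 361). Apoe followed at 41.9, Psenen at 30.8, App at 28.6 and Ncstn at 23.7 CPM per kb. Aph1a was at 14.5, Clu at 12.1, Bace1 at 9.66 and Psen2 at 3.75 CPM per kb. This order pools unlike groups. In AKR/J d12 the group mean of Mapt was 11.5 CPM per kb, its lowest, below the 61.5 of Psenen, its highest, and the 12.2 of App. Neighbours in the order had overlapping ranges over the libraries, as Psenen (16.8 to 84) and App (11.4 to 84.8 CPM per kb) did. The mean level of Mapt was 55.7 CPM per kb on d12, 148 on d15 and 166 on d17, that of Clu 5.29, 12 and 18.8, and that of Psenen 42.7, 25.9 and 23.7 CPM per kb.

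**Figure D1:**
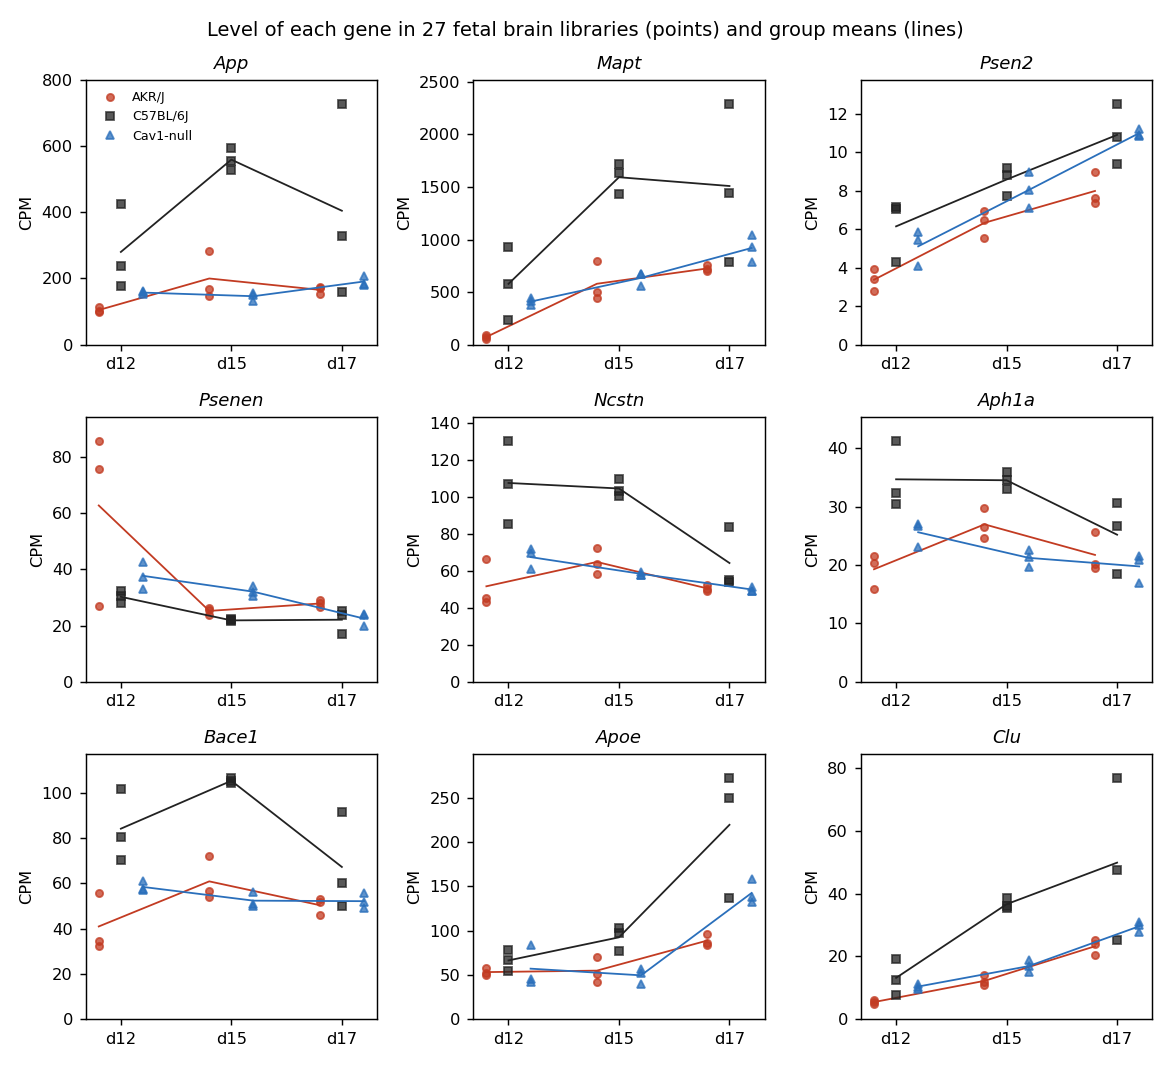
Level of each of the 9 genes in CPM (vertical axis, from 0) on d12, d15 and d17 (horizontal axis). Points are single libraries, lines join the group means, and colours and shapes give the strain. On d15 the App values of C57BL/6J lie at 528 to 593 CPM, above the 148 to 283 CPM of AKR/J and the 133 to 156 CPM of Cav1-null mice.

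The first comparisons were between days within a strain. App (chr16:84746573-84971126, minus strand) was at 103, 97.4 and 113 CPM in AKR/J on d12, 148, 168 and 283 CPM on d15 and 170, 153 and 174 CPM on d17. The d12 and d15 libraries did not overlap, and App rose early in AKR/J (log2FC 0.89 ± 0.252, adjusted p = 0.0315), but it did not pass the test in 4 of 6 fits that left out 1 library (without AKR/J d12 replicate 1, 2 or 3, or d15 replicate 3, adjusted p up to 0.0946). With the trend with GC content and length removed, a step added after seeing the data, it was 0.40, adjusted p = 0.26. In C57BL/6J it was at 238, 424 and 178 CPM on d12, 556, 528 and 593 CPM on d15 and 728, 159 and 327 CPM on d17. All d15 libraries of C57BL/6J lay above all d12 libraries, with an early log2FC of 0.96 ± 0.274 that missed the threshold (adjusted p = 0.0548), and the d17 libraries ran from below the lowest d12 library to above the highest of d15. In Cav1-null mice it was at 152, 161 and 159 CPM on d12, 156, 150 and 133 CPM on d15 and 179, 209 and 184 CPM on d17. There the early libraries overlapped (log2FC -0.10 ± 0.0856, adjusted p = 0.427), and App rose in the late phase (log2FC 0.39 ± 0.0843, adjusted p = 0.00399).

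Mapt (chr11:104122024-104222946, plus strand) had the largest early log2FC of the 9 genes in AKR/J. It was at 58.4, 87.3 and 73.2 CPM on d12, 497, 441 and 801 CPM on d15 and 753, 705 and 718 CPM on d17. The early rise was 7.67-fold (log2FC 2.94 ± 0.296, adjusted p = 0.00104), and it passed the test in each of the 6 fits that left out 1 library. The neuron markers of AKR/J moved with it, from 1280 to 1860 CPM on d12 to 3470 to 5020 CPM on d15, and their part in the rise was not tested. They also lay apart between d12 and d15 in Cav1-null (3720 to 4570, then 5040 to 5070 CPM) and C57BL/6J libraries (2710 to 4670, then 5440 to 6000 CPM). In Cav1-null mice Mapt was at 375, 439 and 414 CPM on d12, 675, 669 and 563 CPM on d15 and 786, 1040 and 934 CPM on d17. It rose there in both phases without overlap, 1.55-fold early (log2FC 0.64 ± 0.105, adjusted p = 0.00376) and 1.45-fold late (log2FC 0.54 ± 0.106, adjusted p = 0.00212). In C57BL/6J it was at 574, 927 and 235 CPM on d12, 1434, 1629 and 1717 CPM on d15 and 2292, 790 and 1447 CPM on d17. The early libraries of C57BL/6J did not overlap, but the log2FC of 1.43 ± 0.414 missed the threshold (adjusted p = 0.0568) and passed with the GC and length trend removed (1.27, adjusted p = 0.0445), without the filter on low counts, by edgeR's likelihood ratio test and DESeq2, and in 1 model of all 27 libraries. The late log2FC was -0.0073 ± 0.363.

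The gamma-secretase genes did not move as one group. Psen2 (chr1:180054569-180091003, minus strand), a presenilin gene, was at 2.8 to 12.5 CPM in the 27 libraries. In Cav1-null mice it was at 4.07, 5.84 and 5.42 CPM on d12, 8.96, 8.04 and 7.12 CPM on d15 and 10.9, 11.2 and 10.9 CPM on d17, and rose in both phases (log2FC 0.65 ± 0.205, adjusted p = 0.0493, then 0.46 ± 0.129, adjusted p = 0.0177). The early call of Psen2 was lost in 5 of 6 fits without 1 library, all but the one without Cav1-null d12 replicate 3, and the late call without d15 replicate 2 or 3 (adjusted p up to 0.177 and 0.0679). In AKR/J the log2FC of Psen2 was 0.86 early and 0.35 late, and in C57BL/6J 0.44 and 0.41, none past the threshold. With the GC and length trend removed the late value of C57BL/6J passed (0.59, adjusted p = 0.0308).

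Psenen (chr7:30261080-30263562, minus strand), the PEN-2 gene, was the only one of the 9 called lower in an early phase. Its AKR/J d12 libraries were at 85.6, 26.9 and 75.5 CPM, against 25.7, 23.6 and 26.3 CPM on d15 (log2FC -1.36 ± 0.373, adjusted p = 0.0279). Replicates 1 and 3, the high ones, also had the most erythroid marker reads, and replicate 2 lay just above the d15 libraries. This call held only without AKR/J d12 replicate 2 and was lost in the 5 other fits without 1 library (adjusted p up to 0.0921). In C57BL/6J the d12 libraries were at 32.2, 30.4 and 28.1 CPM and those of d15 at 22.1, 21.5 and 21.9 CPM, without overlap (log2FC -0.52 ± 0.107, adjusted p = 0.0291). In Cav1-null mice Psenen fell in the late phase, from 33.9, 31.8 and 30.4 CPM to 24, 19.7 and 23.8 CPM (log2FC -0.51 ± 0.0995, adjusted p = 0.00209), in all 6 fits without 1 library. Psenen overlaps U2af1l4 and Gm49396 on the other strand, and whether strand was used in counting is not given in the sources used here, so its counts may hold their reads. The same holds for Ncstn with Copa, Aph1a with Car14, Bace1 with Rnf214 and Clu with Scara3, and App, Mapt, Psen2 and Apoe overlap noncoding genes on the other strand.

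Ncstn (chr1:171893580-171910369, minus strand), the nicastrin gene, had lower libraries on d17 than on d15 in each strain, without overlap. In AKR/J it went from 63.8, 58.1 and 72.4 CPM to 52.4, 49.1 and 49.9 CPM (log2FC -0.34 ± 0.0912, adjusted p = 0.03). In Cav1-null mice it went from 59.4, 58 and 57.7 CPM to 49.2, 49 and 51.5 CPM (log2FC -0.22 ± 0.0715, adjusted p = 0.0341). The Cav1-null call was lost in each of the 6 fits without 1 library, and that of AKR/J in 4 (without d15 replicate 1 or 3, or d17 replicate 2 or 3). In C57BL/6J Ncstn went from 110, 101 and 103 CPM to 83.6, 55.2 and 53.8 CPM, which missed the threshold (log2FC -0.64 ± 0.192, adjusted p = 0.0662) but passed with the GC and length trend removed (-0.57, adjusted p = 0.0361), without a filter, by the likelihood ratio and DESeq2 tests and in the model of all 27 libraries.

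Aph1a (chr3:95801233-95805901, plus strand), which encodes another gamma-secretase subunit, was at 15.9 to 41.2 CPM over the 27 libraries and was DE in no phase of any strain. Bace1 (chr9:45749834-45776173, plus strand), the beta-secretase gene, was at 32.3 to 107 CPM and was also DE in no phase. In C57BL/6J it went from 104, 107 and 105 CPM on d15 to 91.8, 50 and 60 CPM on d17 without overlap (log2FC -0.58 ± 0.225, adjusted p = 0.12). The late log2FC of Bace1 was -0.26 ± 0.118 in AKR/J and -0.0024 ± 0.0823 in Cav1-null mice.

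Apoe (chr7:19430034-19434947, minus strand), expressed in the brain mainly by glia, rose in the late phase of all 3 strains. In AKR/J it went from 51.3, 70.6 and 42 CPM on d15 to 85.5, 84.1 and 96.6 CPM on d17 (log2FC 0.71 ± 0.179, adjusted p = 0.0246). In C57BL/6J it rose 2.49-fold, from 103, 76.5 and 97.8 CPM to 273, 136 and 250 CPM (log2FC 1.32 ± 0.28, adjusted p = 0.026). In Cav1-null mice it rose 2.9-fold, from 56, 52.4 and 39.6 CPM to 138, 158 and 132 CPM (log2FC 1.53 ± 0.115, adjusted p = 1.5e-06). No d17 library overlapped with d15 in any strain. The call held in all 6 fits without 1 library in Cav1-null mice, and was lost in 4 of 6 in AKR/J (without d15 replicate 1 or any of d17) and 4 of 6 in C57BL/6J (without any of d15 or d17 replicate 3), with adjusted p up to 0.122 and 0.121. The early log2FC of Apoe was -0.0012 (AKR/J), 0.44 (C57BL/6J) and -0.21 (Cav1-null), none past the threshold.

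Glial marker sums were read beside Apoe. The 8 microglia markers summed to 41.4 to 53.4 CPM on d15 and 51.6 to 56.5 CPM on d17 in AKR/J, 47 to 77.5 and 38.5 to 56.6 CPM in C57BL/6J, and 31.7 to 37.8 and 34.8 to 39.9 CPM in Cav1-null mice. The 8 astrocyte markers summed to 247 to 357 and 251 to 307 CPM in AKR/J, 419 to 482 and 354 to 530 CPM in C57BL/6J, and 199 to 205 and 308 to 364 CPM in Cav1-null mice. The d15 and d17 ranges were apart for astrocyte markers in Cav1-null mice and overlapped in the other strains. Some other lists were also apart, such as choroid plexus markers in AKR/J (372 to 501, then 564 to 605 CPM) and endothelium and pericyte markers in Cav1-null mice (196 to 202, then 227 to 265 CPM). The part of these cells in the rise of Apoe was not tested.

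Clu (chr14:66190200-66218999, plus strand), the clusterin gene, rose in the early phase of all 3 strains. In AKR/J it was at 6.06, 5.43 and 4.62 CPM on d12, 10.7, 14 and 11.8 CPM on d15 and 25.2, 23.8 and 20.5 CPM on d17, and rose in both phases (log2FC 1.13 ± 0.24, adjusted p = 0.0109, then 0.95 ± 0.143, adjusted p = 0.0033). In Cav1-null mice it was at 11, 9.67 and 10.3 CPM, 18.7, 14.9 and 16.9 CPM and 27.8, 30.1 and 30.8 CPM, and also rose in both phases (log2FC 0.71 ± 0.14, adjusted p = 0.00807, then 0.82 ± 0.104, adjusted p = 8.36e-05). In both strains every library of a later day lay above every library of an earlier day. In C57BL/6J it was at 12.5, 19 and 7.75 CPM on d12, 36, 35.2 and 38.5 CPM on d15 and 76.8, 25.1 and 47.7 CPM on d17, with an early rise (log2FC 1.45 ± 0.275, adjusted p = 0.0251) and overlapping d15 and d17 libraries. The early C57BL/6J calls of Clu and of Psenen were each lost without d12 replicate 1 or any d15 library, with adjusted p up to 0.124 and 0.14, and the early Cav1-null call of Clu was lost without d15 replicate 1 (adjusted p = 0.0513). Choroid plexus marker sums also rose early without overlap in AKR/J (261 to 315, then 372 to 501 CPM) and C57BL/6J (312 to 472, then 500 to 627 CPM). In Cav1-null mice these sums overlapped (322 to 799, then 432 to 541 CPM). The part of such cells in the rise of Clu was not tested.

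**Figure D2:**
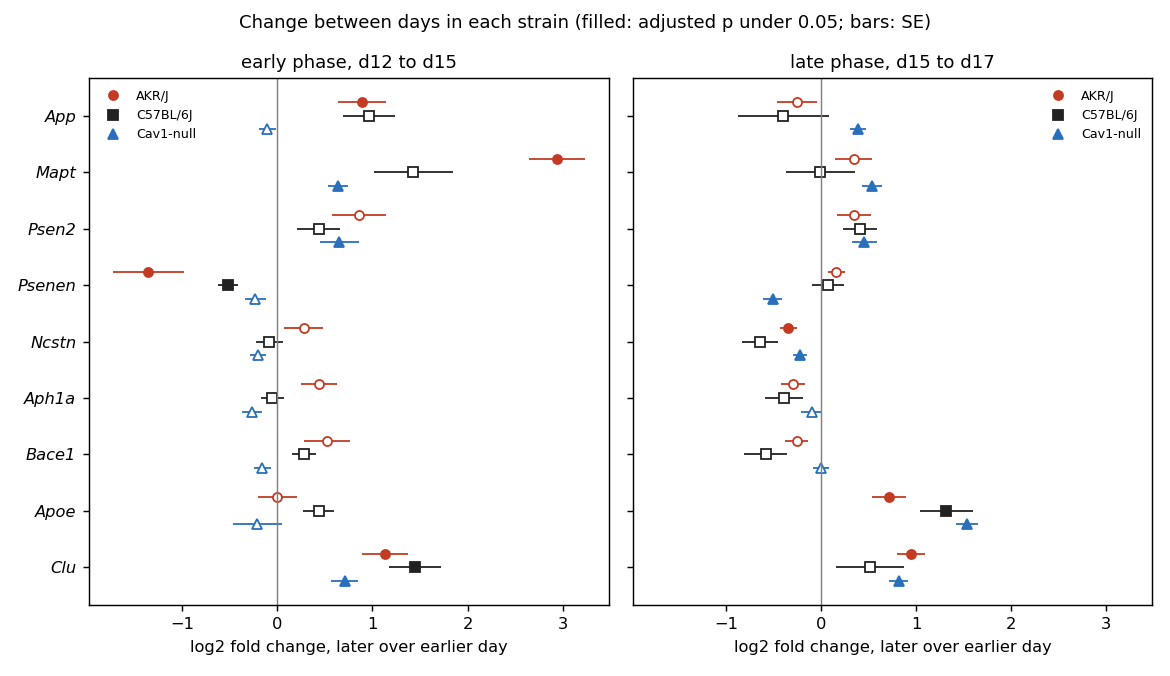
Log2 fold change of the 9 genes (horizontal axis, later over earlier day) in the early phase on the left and the late phase on the right, with bars of 1 SE. Colours and shapes give the strain, and filled symbols have an adjusted p under 0.05. Clu is filled in all 3 strains in the early phase and Apoe in all 3 strains in the late phase.

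The number of DE genes among the 9 was read against the share of all tested genes that were DE. In the early phase 4 of the 9 were DE in AKR/J, where 28.9% of all tested genes were, 2 in C57BL/6J (14.9%) and, for Cav1-null, 3 (23.4%). In the late phase 3 were DE in AKR/J (22.1%), 1 in C57BL/6J (13.0%), and among Cav1-null mice 7 (27.3%). The median log2FC of the 9 genes was 0.523, 0.436 and -0.156 early and 0.16, -0.00726 and 0.387 late, in the order AKR/J, C57BL/6J and Cav1-null, beside -0.0382 to 0.0286 for all tested genes. In a model of all 27 libraries, which shares 1 estimate of spread among the groups, Apoe alone of the 7 late genes of Cav1-null mice passed the test (beside 3.56% of all tested genes), Clu alone of the 3 late genes of AKR/J (10.2%) and Psen2 alone of the 3 early genes of Cav1-null mice (13.1%), where the calls of Mapt and Clu were lost. Without C57BL/6J d12 replicate 2, 5 genes were DE in the early phase of C57BL/6J (beside 29.8% of all tested genes), with App (1.35, adjusted p = 0.00664), Mapt (1.91, adjusted p = 0.0173) and Bace1 (0.41, adjusted p = 0.0197) added. Without C57BL/6J d17 replicate 1, 4 were DE in the late phase (beside 33.2%), with App (-1.14, adjusted p = 0.027), Ncstn (-0.89, adjusted p = 0.00214) and Bace1 (-0.88, adjusted p = 0.00356) added as lower. Other single libraries also decided calls. Mapt was DE early in C57BL/6J without d12 replicate 3, and Clu late without d17 replicate 2. In AKR/J, Psen2, Ncstn and Bace1 were DE early without d12 replicate 2 (beside 43.5% of all tested genes), Mapt late without d15 replicate 3 and Aph1a late without d17 replicate 1. In Cav1-null mice, Psenen, Ncstn and Aph1a were DE early without d12 replicate 3, beside 35.9% of all tested genes.

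The strains were then compared with C57BL/6J on each day. On d15 App was 3.71-fold lower in Cav1-null mice, at 156, 150 and 133 CPM against 556, 528 and 593 CPM in C57BL/6J (log2FC -1.89 ± 0.0766, adjusted p = 3.37e-08). Mapt was 2.44-fold lower, at 675, 669 and 563 CPM against 1434, 1629 and 1717 CPM (log2FC -1.28 ± 0.0857, adjusted p = 6.06e-07). Clu (-1.08 ± 0.1), Bace1 (-0.97 ± 0.0595), Apoe (-0.87 ± 0.141), Ncstn (-0.80 ± 0.0592) and Aph1a (-0.66 ± 0.0868) were also lower in Cav1-null mice, with adjusted p of 3.42e-07 to 0.000391. Psenen was higher (log2FC 0.59 ± 0.0817, adjusted p = 0.00012), and Psen2 overlapped (log2FC -0.055 ± 0.148). These 8 of 9 stand beside 58.6% of all tested genes. Of the 10 marker lists 7 did not overlap in this contrast. Sums were lower in Cav1-null mice for astrocytes (199 to 205 against 419 to 482 CPM), endothelium and pericytes (196 to 202 against 322 to 423 CPM), microglia (31.7 to 37.8 against 47 to 77.5 CPM), neurons (5040 to 5070 against 5440 to 6000 CPM), radial glia (1360 to 1480 against 1660 to 1740 CPM) and meninges and connective tissue (63.4 to 142 against 340 to 5080 CPM). The erythroid sum was higher (2910 to 3610 against 819 to 1060 CPM), and the part of these cells in the differences was not tested. All 8 passed in each of the 6 fits without 1 library, among them the fit without C57BL/6J d15 replicate 1, whose meninges and connective tissue markers summed to 5080 CPM against 340 and 570 CPM in its group.

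On d15 AKR/J was compared with the same 3 libraries of C57BL/6J. These had the most reads of the 27 (37191332 to 39759702), against 29437156 to 30160663 in AKR/J and 26846313 to 29090743 in Cav1-null mice on d15. Their TMM factors were 0.8973 to 0.9313, against 1.037 to 1.111 and 1.06 to 1.068. Both d15 contrasts rest on this group, and the part of its depth was not tested. Clu (log2FC -1.52 ± 0.127, adjusted p = 0.000256), App (-1.42 ± 0.219, adjusted p = 0.00196) and Mapt (-1.40 ± 0.209, adjusted p = 0.00172) had the largest differences, all lower in AKR/J. Bace1 (-0.73 ± 0.0966), Apoe (-0.68 ± 0.209), Ncstn (-0.62 ± 0.0766) and Aph1a (-0.29 ± 0.0826) were lower, with adjusted p of 0.000789 to 0.0351, and Psenen was higher (log2FC 0.27 ± 0.0785, adjusted p = 0.0267). These 8 of 9 stand beside 41.1% of all tested genes. The count was 6 with the likelihood ratio test, no filter on low counts or the model of all 27 libraries (each without Psenen and Aph1a), beside 38.9%, 19.3% and 22.5% of all tested genes, and 6 with library sizes alone (without Aph1a and Apoe), beside 44.8%. Of the 10 marker lists 5 did not overlap. Sums were lower in AKR/J for neurons (3470 to 5020 against 5440 to 6000 CPM), astrocytes (247 to 357 against 419 to 482 CPM), endothelium and pericytes (212 to 236 against 322 to 423 CPM) and yolk sac endoderm (258 to 359 against 362 to 459 CPM), and the erythroid sum was higher (2010 to 3060 against 819 to 1060 CPM). The yolk sac endoderm list shares Ttr with the choroid plexus list, and 4 of its 9 genes in AKR/J and 3 in C57BL/6J were above 1 CPM. Its sum therefore need not reflect yolk sac cells. The part of the cells behind these sums in the differences was not tested. App, Mapt, Ncstn, Bace1 and Clu passed in each of the 6 fits without 1 library. Psenen and Aph1a were each lost in 5 of the 6, Psenen in all but the fit without AKR/J d15 replicate 2 and Aph1a in all but the one without AKR/J d15 replicate 3, and Apoe without AKR/J d15 replicate 1 or C57BL/6J d15 replicate 1 or 3.

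On d12, 7 of the 9 genes differed between AKR/J and C57BL/6J, beside 28.6% of all tested genes. Mapt was 7.13-fold lower in AKR/J, at 58.4, 87.3 and 73.2 CPM against 574, 927 and 235 CPM (log2FC -2.83 ± 0.458, adjusted p = 0.0115). App (-1.27 ± 0.302), Clu (-1.14 ± 0.347), Ncstn (-0.91 ± 0.238), Bace1 (-0.89 ± 0.255) and Aph1a (-0.70 ± 0.213) were lower, with adjusted p of 0.0191 to 0.0404, and Psenen was higher (log2FC 1.19 ± 0.374, adjusted p = 0.044) with overlapping libraries. Without C57BL/6J d12 replicate 2, which had the highest App and Mapt of its group, 0 of the 9 passed (Mapt -2.38, adjusted p = 0.0622), beside 0.122% of all tested genes. Without AKR/J d12 replicate 1 or 3 or C57BL/6J d12 replicate 1, Mapt alone passed, beside 6.80%, 7.48% and 8.00%. Without overlap, the erythroid sum was higher in AKR/J (33000 to 198000 against 1930 to 4590 CPM). Sums of neuron markers (1280 to 1860 against 2710 to 4670 CPM), astrocyte markers (204 to 256 against 301 to 447 CPM) and endothelium and pericyte markers (87.6 to 122 against 186 to 380 CPM) were lower there, also without overlap. Of the 8 astrocyte markers, 5 were above 1 CPM in AKR/J and 6 in C57BL/6J, so their sum need not reflect astrocytes. The trophoblast and decidua sums overlapped (36.1 to 781 against 0.284 to 65 CPM), and the part of the cells behind these sums in the contrast was not tested.

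Between Cav1-null mice and C57BL/6J on d12, 0 of the 9 genes and 0% of all tested genes were DE by edgeR's quasi-likelihood test, with 4309 genes at an unadjusted p under 0.05. The DESeq2 Wald test called 2044 genes there, with App, Ncstn and Bace1 among the 9, and edgeR's likelihood ratio test 1269, with Ncstn among the 9. Without C57BL/6J d12 replicate 3 the quasi-likelihood test called App (-1.03, adjusted p = 0.0358), Ncstn (-0.78, adjusted p = 0.0331) and Bace1 (-0.61, adjusted p = 0.0423), each lower in Cav1-null mice, beside 7.37% of all tested genes. The log2FC of App over all 6 libraries was -0.79 ± 0.271, from 152, 161 and 159 CPM against 238, 424 and 178 CPM without overlap.

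On d17, 0 of the 9 genes were DE between AKR/J and C57BL/6J by edgeR's quasi-likelihood test, beside 0.742% of all tested genes (4275 at an unadjusted p under 0.05), and 0 between Cav1-null mice and C57BL/6J, beside 0.0491% (1538). The DESeq2 Wald test called 3 of the 9 in AKR/J, Mapt, Apoe and Clu, beside 6.58% of all tested genes, and 0 in Cav1-null mice (0.236%). The likelihood ratio test called the same 3 genes in AKR/J (5.90%), the test without a filter added App (2.51%), and the model of all 27 libraries called App, Apoe and Clu (3.60%). C57BL/6J d17 replicate 2 had the lowest App, Mapt, Apoe and Clu of its group, and its neuron markers summed to 4680 CPM against 6330 and 5690 CPM. Without it, 6 genes were lower in AKR/J, App (-1.67, adjusted p = 0.00633), Mapt (-1.36, adjusted p = 0.0041), Apoe (-1.56, adjusted p = 0.000285), Clu, Psen2 and Bace1, beside 26.4% of all tested genes. Without it, 4 were lower in Cav1-null mice, App (-1.48, adjusted p = 0.0243), Mapt (-1.03, adjusted p = 0.0249), Apoe (-0.89, adjusted p = 0.0243) and Clu (-1.08, adjusted p = 0.0243), beside 13.6%. Without C57BL/6J d17 replicate 1, Apoe was called in AKR/J (-1.14, adjusted p = 0.0495).

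**Figure D3:**
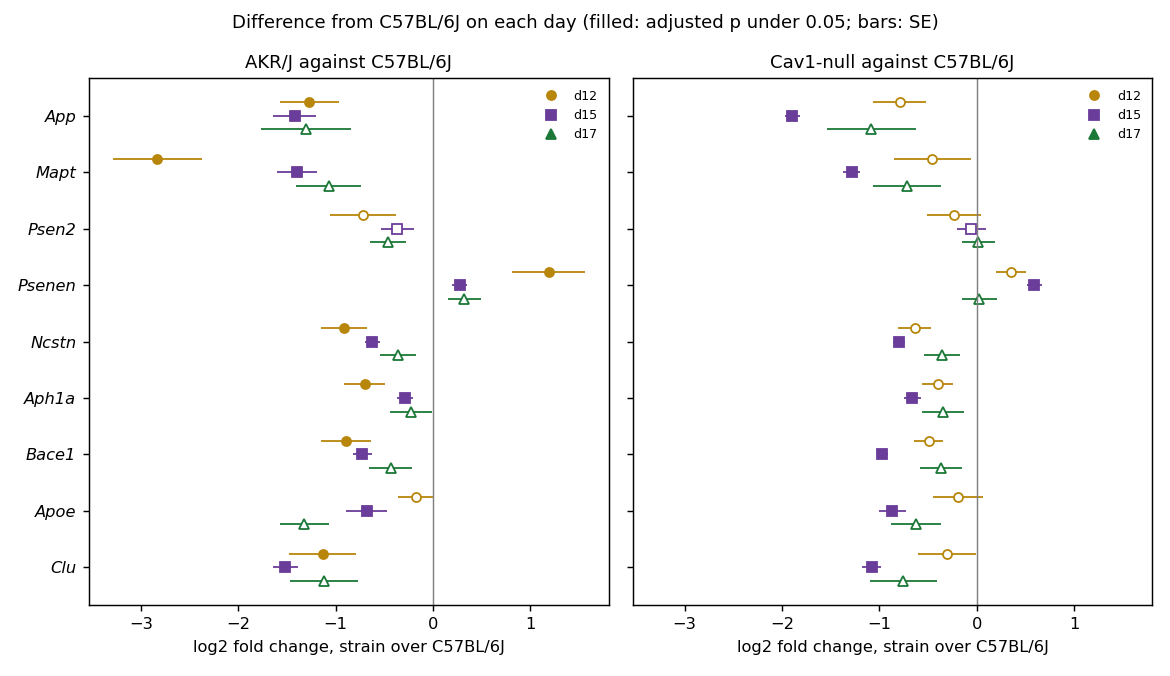
Log2 fold change of each of the 9 genes against C57BL/6J (horizontal axis) in AKR/J on the left and Cav1-null mice on the right, with bars of 1 SE. Colours and shapes give the day, and filled symbols have an adjusted p under 0.05. On d15, 8 of 9 symbols are filled in both panels, and on d17 none is.

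The strain differences moved with the GC content and length of genes. On d15 the median log2 difference of Cav1-null mice from C57BL/6J was 0.546 among the 20% of genes lowest in GC content and -0.486 among the 20% highest, and 0.457 among the shortest and -0.188 among the longest. For AKR/J the values by GC content were 0.398 and -0.344 on d15 and 0.512 and -0.421 on d12. With this trend removed from each library, a step chosen after seeing the data, all 9 genes were DE between Cav1-null mice and C57BL/6J on d15, beside 51.0% of all tested genes. App was then at a log2FC of -1.68, adjusted p = 1.07e-07, Mapt at -0.61, adjusted p = 3.49e-05, and Psen2 was higher in Cav1-null mice (0.42, adjusted p = 0.0244). Clu (-0.63, adjusted p = 0.000279), Apoe (-0.53, adjusted p = 0.0022) and Psenen (0.38, adjusted p = 0.00173) also moved by over 1.5 times toward 0. Between AKR/J and C57BL/6J, 5 of the 9, App, Mapt (-0.89, adjusted p = 0.0124), Ncstn, Bace1 and Clu, remained DE on d15, beside 30.7% of all tested genes. On d12 Mapt (-2.05, adjusted p = 0.0152) and Ncstn (-0.76, adjusted p = 0.0415) remained, beside 18.6%, and on d17 Apoe was called lower in AKR/J (-1.10, adjusted p = 0.0314), beside 1.21%.

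Whether a strain changed differently from C57BL/6J between days was tested with an interaction term over 12 libraries. None of the 9 genes passed in any of the 4 tests by edgeR's quasi-likelihood test, in which 0.0711% (AKR/J, early), 0.00468% (AKR/J, late), 0.00472% (Cav1-null, early) and 0.252% (Cav1-null, late) of all tested genes were DE, with 3432, 1617, 3181 and 4683 at an unadjusted p under 0.05. The early change of App in Cav1-null mice had the lowest adjusted p among the 9 of that test, with a log2 difference of -1.09 ± 0.309 (adjusted p = 0.213), and the DESeq2 Wald test called it. The log2 difference of Mapt early in AKR/J was 1.46 ± 0.543 (adjusted p = 0.218). Over the 4 tests the lowest adjusted p was that of Psenen late in Cav1-null mice (-0.62, adjusted p = 0.115). Without C57BL/6J d12 replicate 2, App (-1.49, adjusted p = 0.00281), Bace1 (-0.60, adjusted p = 0.0188) and Clu (-1.11, adjusted p = 0.0244) passed for the early Cav1-null change, beside 7.30% of all tested genes. Leaving out C57BL/6J d17 replicate 1, 6 of the 9, App, Mapt, Psenen, Ncstn, Bace1 and Clu, passed in their late phase, beside 26.1%. In AKR/J, Psenen passed early without AKR/J d12 replicate 2, Mapt early without C57BL/6J d12 replicate 3 and Ncstn late without C57BL/6J d17 replicate 1.

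Other genes of the pathways were counted in 7 lists. Of all tested genes, 14.8% rose and 14% fell early in AKR/J, 7.08% and 7.8% in C57BL/6J, and 11.6% and 11.8% among Cav1-null libraries. Late, 11.6% rose and 10.4% fell in AKR/J, 7.46% and 5.58% in C57BL/6J, and 14.5% and 12.8% among Cav1-null libraries. Of 10 other microtubule-associated proteins, 6 rose early in AKR/J, 3 in C57BL/6J (Dclk1, Dcx and Map9) and 2 in Cav1-null mice (Dclk1 and Map9), and 0 fell. In the late phase 8 of them rose in Cav1-null mice, and Map9 alone in each of the other strains. Map9, which binds and stabilises microtubules, had log2FCs of 1.99, 0.96 and 1.00 early and 0.94, 0.86 and 0.59 late, given for AKR/J, then C57BL/6J, then Cav1-null. Dclk1, a doublecortin-like kinase of young neurons, had early log2FCs of 1.27, 0.87 and 0.33. Of 19 kinases and phosphatases that act on tau, 7 rose early in AKR/J, and 0 changed in C57BL/6J. Among Cav1-null libraries Cdk5, Mark1, Ppp2r2b and Ppp2r2c rose while Csnk1d and Dyrk1a fell. Ppp2r2c, a regulatory subunit of protein phosphatase 2A, rose in the late phase of all 3 strains (1.39, 0.93 and 0.91).

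Of 13 adaptors and sorting proteins of APP, Apba1, Apba2, Apbb1, Apbb2 and Sorl1 rose early in AKR/J, Apba1 and Itm2b in C57BL/6J, and Apba1 in Cav1-null mice, where Itm2c and Numb fell. Apba1, an adaptor that binds the cytoplasmic tail of APP, had early log2FCs of 2.39, 1.46 and 0.59. In the late phase Gga1 and Numb fell in AKR/J, while in Cav1-null mice Apba1 and Apbb1 rose and Numb and Sort1 fell. Of 9 receptors and transporters for the lipid carriers, Abcg1, Lrp8, Lrpap1 and Vldlr were among those that rose and Lrp2 among those that fell early in AKR/J. Lrp2 was among those that fell early in C57BL/6J, and for Cav1-null Lrp8 and Vldlr rose and Lrp2 fell. Lrp2, the endocytic receptor megalin, had early log2FCs of -1.91, -0.95 and -0.84. In the late phase Vldlr rose in AKR/J, Abca7 fell in AKR/J and Cav1-null mice, and Lrp2 fell in C57BL/6J. Of 6 other secretase genes, Adam10 and Adam17, alpha-secretases, fell early in Cav1-null mice and late in AKR/J, Aph1b rose early in AKR/J and Aph1c late in Cav1-null mice. Of 4 amyloid-beta degrading enzymes, Ece2 rose early in AKR/J and Cav1-null mice, and again late in AKR/J. Ide, the insulin-degrading enzyme, fell early in C57BL/6J and Cav1-null mice, and Ece1, Ide and Mme rose late in Cav1-null mice. Of the 2 relatives of App, Aplp1 rose early in AKR/J and Aplp2 late in Cav1-null mice. Between Cav1-null mice and C57BL/6J on d15, 31.8% of all tested genes were lower and 26.8% higher. There 15 of the 19 tau kinases and phosphatases were lower and 2 higher, Cdk5 among them, and 8 of the 10 microtubule-associated proteins were lower and 1, Map9, higher. Of the APP adaptors 11 of 13 were lower, of the receptors and transporters 8 of 9, of the other secretases 4 of 6 (Adam9, Adam10, Adam17 and Bace2), and both relatives of App, with 0 higher in these lists. Of the degrading enzymes Ece2 and Ide were higher and Ece1 lower.

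The levels of 4 of the genes over the 27 libraries were compared with 12517 genes by Pearson's r of log2(CPM + 1), as a description. Mapt was most like Mmp24 (r = 0.994), Tbc1d30 (0.993) and Olfm2 (0.992). App was most like Dner (0.987), Ap2a2 (0.981) and Magee1 (0.981), and Clu most like Vgf (0.975), Prrt4 (0.975) and Kcna6 (0.972). The genes most like Apoe were Gm2a (0.902), Klf9 (0.901) and Rapgef3 (0.877). The libraries of a group share strain and day, and all genes share the depth of a library.

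The junction table gave reads that cross single splice junctions. It held 7 of the 16 canonical junctions of App and 6 of the 10 of Mapt. The authors removed junctions with multi-mapped reads or short overhangs, so a listed 0 can be a removed value, and a 0 was taken as missing where the junction had a median of at least 20 reads.

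Reads joining exon 7 of App to exon 8 became rarer with age in each strain. They were set against the exon 9 to 10 junction, which had 102 to 1243 reads in every library. In AKR/J there were 25.4, 18.6 and 20.6 exon 7 reads per 100 reads of that junction on d12, 3.2, 15.7 and 7.23 on d15 and 5.88, 3.48 and 1.26 on d17. In C57BL/6J there were 11, 10.1 and 19.6 on d12, 12.7, 7.87 and 5.91 on d15 and 6.81, 3.07 and 4.49 on d17. In Cav1-null mice there were 13.4, 9.69 and 15.6 on d12, 4.47, 6.43 and 8.07 on d15 and 2.88, 2.03 and 1.59 on d17. Every d12 library lay above every d17 library, over all 3 strains. The change from d12 to d17 was -18 per 100 (AKR/J), -8.79 (C57BL/6J) and -10.7 (Cav1-null), and the mean of -12.5 had p = 0.00025 in a two-sided exact permutation test of days within strains, the smallest that its 8000 arrangements can give. The ratio was chosen after seeing the data. With the exon 8 to 9 junction in place of exon 9 to 10 the change was -11 (p = 0.00025, exact permutation test). Leaving out 1 library gave changes of -13.1 to -11.5. The p of these 18 exact permutation tests (0.00025 to 0.0005) was fixed in advance, since the days stayed apart in every strain, and adds no support.

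The direct share of exon 7, its junction reads among those of exon 7 and of the junction that skips it, was 17.4% to 32.7% on d12 and 0.993% to 5.58% on d17 in AKR/J, and 8.89% to 14.5% and 1.41% to 2.48% in Cav1-null mice. In C57BL/6J it was 3.11% to 5.5% on d17, while on d12 the skipping junction is listed at 0 in replicates 1 and 3, which left 1 value (9.82%), so the share was not tested. The exon 7 ratio was set beside connective tissue markers within groups. In 8 of the 9 groups the library with the highest sum of the 6 meninges and connective tissue markers also had the highest ratio, such as AKR/J d15 replicate 2 with 1060 CPM and a ratio of 15.7, and C57BL/6J d15 replicate 1 with 5080 CPM and 12.7. For the 9 other marker lists this held in 1 to 6 of the 9 groups. Only the highest library of each group was compared in this way, not the order of the other libraries. The part of these cells in the change was not tested.

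**Figure D4:**
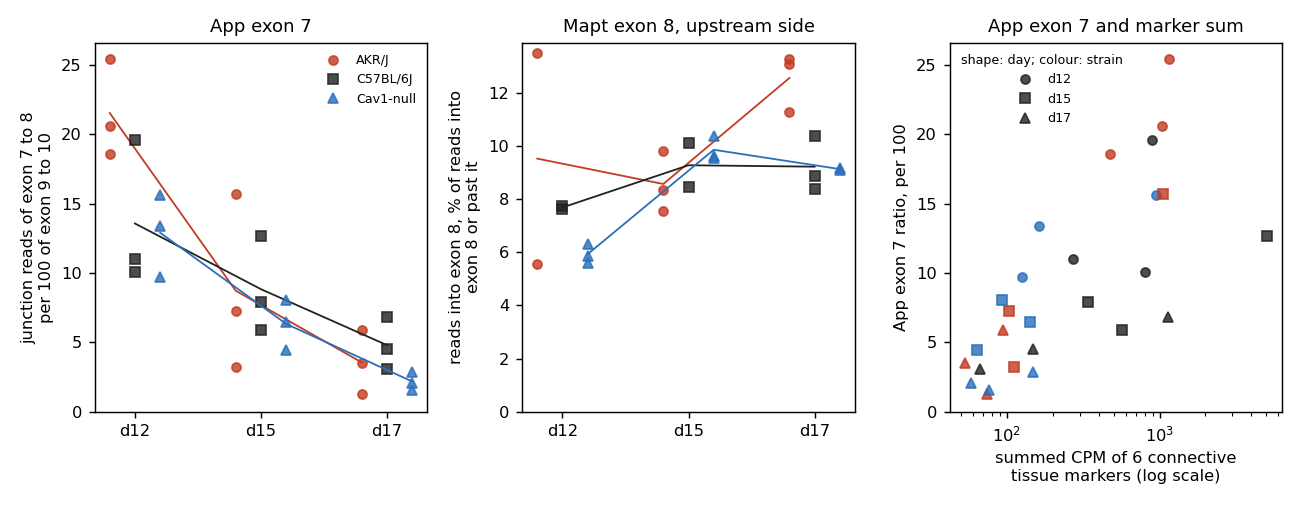
Left, reads of the App exon 7 to 8 junction per 100 reads of the exon 9 to 10 junction by day. Middle, percent of Mapt reads from the upstream splice site that enter exon 8, by day. Right, the App ratio against the summed CPM of 6 meninges and connective tissue markers on a log axis. Points are single libraries and lines join group means, and the App ratio runs from 9.69 to 25.4 on d12 and from 1.26 to 6.81 on d17.

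Skipping of App exon 14 was rare at all ages, with at most 35 skipping reads in a library. Its share was 2.08% to 5.08% on d12, 0.973% to 2.68% on d15 and 0.833% to 1.31% on d17 in AKR/J, 1.5% to 2.27%, 1.34% to 2.16% and 0.993% to 1.74% in C57BL/6J, and 0% to 4.65%, 0% to 1.46% and 0% to 2.93% in Cav1-null mice. Days overlapped in Cav1-null mice but not between d12 and d17 in AKR/J. Its mean was under the 2% set for testing, so it was not among the 7 junction pairs tested. With every 0 counted as missing its mean was 2.04% and its change from d12 to d17 -1.79 points (two-sided exact permutation test, unadjusted p = 0.0025), and with every 0 counted as 0 reads the change was 9.4 points (p = 0.986, exact permutation test).

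Inclusion of Mapt exon 8 had a mean of 7.5% over the 19 libraries in which both sides could be read. The change from d12 to d17 was 0.25 percentage points and could not be tested, since AKR/J d12 gave 1 value. By the upstream junction alone the share was 5.56% to 13.5% on d12 and 11.3% to 13.3% on d17 in AKR/J, 7.65% to 7.73% and 8.4% to 10.4% in C57BL/6J, and 5.61% to 6.3% and 9.09% to 9.18% in Cav1-null mice. The mean change was 2.59 points over 23 libraries with a value (two-sided exact permutation test, p = 0.009, and 0.063 adjusted over the 7 junction pairs tested), which did not pass. By the downstream junction alone it was -1.05 points and was not tested. The sides differed in sign in AKR/J (3.03 points upstream, -6.53 downstream), where d12 gave few values, while C57BL/6J (1.54 and 0.494) and Cav1-null mice (3.2 and 2.88) had positive values on both. Among the other 6 pairs, 4 of Psenen and 2 of Ncstn, the lowest adjusted p of the exact permutation test was 0.194.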

How the data were processed

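Poly(A)-selected RNA of whole fetal brains was sequenced by the authors, 27 libraries in 9 groups of 3. Per the labels, the tools used upstream included FastQC, cutadapt, fastp, STAR, bedtools and edgeR, with GRCm39 as genome. The deposited values are raw read counts per gene and read counts per splice junction, and the counting tool and its strand setting are not given in the sources used here. Gene counts summed to 26363697 to 39759702 reads per library, which is not the number of reads sequenced. Low counts were filtered with filterByExpr, scaling was by TMM, and edgeR 4.0.16 (R 4.3.3) tested each comparison by its quasi-likelihood test over all genes that passed, with Benjamini-Hochberg adjustment and a threshold of 0.05. Each phase and each strain comparison used its own 6 libraries and each interaction 12. Alternatives were a likelihood ratio test, DESeq2 1.42.0, RLE scaling, library sizes alone, no filter, 1 model of all 27 libraries, a replicate block and leaving out each library. Removal of the trend with GC content and length was added after seeing the data. The fits were tested on simulated data. Junction shares were compared by exact permutation tests. The named genes were the 9 genes, pathway genes DE in the same direction in all 3 strains in a phase, and the 3 genes most like App, Mapt, Apoe and Clu. Other pathway genes were named after their values were seen. The genes and lists were chosen with earlier results of these data known. Exon sequences and positions were read from the GRCm39 reference. Some results are not reported here.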

Additional observations from a re-analysis of the deposited data

Results flagged for a closer look

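Between AKR/J and Cav1-null mice, the libraries of both days did not overlap in either strain and lay in opposite order in 2 cases, 1 of the 9 genes early (4.01% of all genes tested in both strains) and 1 late (1.98%). The log2 fold change of Psenen in the late phase was 0.16 in AKR/J (adjusted p = 0.238, edgeR's quasi-likelihood test) and -0.506 in Cav1-null mice (adjusted p = 0.00209), so that only the fall in Cav1-null mice was DE. The log2 fold change of Aph1a in the early phase was 0.438 in AKR/J (adjusted p = 0.112) and -0.268 in Cav1-null mice (adjusted p = 0.11), neither of them DE. The difference between these strains was not tested in either case. Early Bace1 libraries lay in opposite order in C57BL/6J (log2 fold change 0.28, not DE at an adjusted p of 0.146) and among Cav1-null mice (-0.16, not DE at 0.22), as did those of 1.19% of all genes tested in both, and the interaction test of that difference did not pass (-0.47, adjusted p = 0.232).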

How the results depend on the processing

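A log2 fold change was counted as unchanged if DE in the same direction in both fits, or DE in neither and shifted by under 1 SE. Of 144 (9 genes in 16 comparisons), 133 were unchanged with DESeq2, 143 with RLE scaling, 134 with the likelihood ratio test and 133 without the filter. Unchanged were 120 with library sizes alone, 118 in 1 model of all 27 libraries and 117 with the GC and length trend removed. Without 1 library, 929 of 1080 values were unchanged. Values DE in neither fit that shifted further numbered 16 with library sizes alone, 13 with the trend removed and 26 without 1 library. With library sizes alone the median change (log2) over all tested genes was 0.457 early in AKR/J (0.0218 with TMM), -0.381 (0.0195) for AKR/J against C57BL/6J on d12, 0.225 (0.0612) on d15, 0.215 (0.0344) for Cav1-null mice on d15 and 0.169 (0.0286) late in C57BL/6J, and of the interactions 0.58 (0.0345) and -0.191 (0.0224) for AKR/J early and late and -0.153 (-0.0495) for Cav1-null late. In the model of all 27 libraries, 23307 genes were tested. The number of DE genes among the 9 was then 7 (4 otherwise) early and 1 (3) late in AKR/J, beside 9568 and 2366 of all. It was 1 (3) early and 1 (7) late in Cav1-null mice, beside 3056 and 829, and 3 (1) late in C57BL/6J, beside 4565. The early phase of C57BL/6J (2) gave 4 with the likelihood ratio test, DESeq2 or no filter, beside 4228 and 4893 of 19154 genes and 2996 of 34409. Its late phase (1) gave 2 with each of these, beside 4181 and 4581 of 19888 and 2980 of 35782. With the trend removed the late phase gave 3, beside 3559 of 19773. AKR/J against C57BL/6J over the days (15) gave 8 with the trend removed, beside the shares of all genes given above. The Cav1-null interactions (0) gave 1 with DESeq2, in the early phase, beside 517 of 21191 genes. Psen2 in Cav1-null mice against C57BL/6J on d15 turned to 0.422 with the trend removed. The change of Mapt exon 8 (0.25 points) was -8.37 with every 0 as 0 reads, 2.59 by the upstream and -1.05 by the downstream junction. Without 1 library the counts ranged from 2 to 6 (AKR/J), 0 to 5 (C57BL/6J) and 1 to 6 (Cav1-null) early, from 1 to 3, 0 to 4 and 5 to 6 late, from 8 to 21 for AKR/J and 8 to 12 for Cav1-null mice against C57BL/6J, and from 0 to 1 and 0 to 6 for the interactions. In the fits without 1 library whose share of all tested genes DE is given above, that share moved with the count, so these ranges are not particular to the 9 genes. Deviations of same-numbered libraries correlated at -0.582 to 0.525, with every pair over 0.1 in 1 of 12 comparisons, AKR/J against C57BL/6J on d12, where the replicate block changed no call; with the replicate block, 135 of 144 values kept their call, the early count of C57BL/6J was 0 (2 otherwise, Clu and Psenen, with 0 DE among all genes against 2850), and that of AKR/J against C57BL/6J on d15 was 5 (8). The cause of these changes was not tested. Depth limits the App exon 7 ratio, which rests on as few as 3 exon 7 reads in a library.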
